A study of Homo sapiens with 18 samples.

Results

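The small nucleolar RNA (snoRNA) host genes are transcribed as long RNAs that mostly do not code for protein, and their introns hold snoRNAs. The 30 members described here are the rows of the count table whose Ensembl identifier maps to a symbol beginning with SNHG, 26 in number, plus GAS5, DANCR, ZFAS1 and EPB41L4A-AS1, out of 35044 genes. The count filter left 26 of the 30 for testing. The libraries came from HCC1937, a breast cancer line with mutated BRCA1. HCC1937-EV carries an empty vector, and HCC1937-OE-BRCA1 was made to overexpress wild-type BRCA1. The paper describes both lines as carrying the HCC1937 mutation, which was not checked in these libraries. No source used here says whether either line is 1 clone. Each line was sequenced untreated and after PARPi treatment with 10 µmol/L olaparib for 12 h or 24 h, with 3 libraries for each of 6 conditions and 18 in all. The labels list olaparib also for the 0 h libraries and call the HCC1937-EV genotype WT, whereas the paper describes untreated cells and a BRCA1-mutated line. The comparisons ask how the host genes respond to olaparib in each line and whether the responses differ between the lines. Every untreated library was taken at 0 h, and none at 12 h or 24 h. A change after olaparib therefore cannot be told apart from a change with time in culture.

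In a snoRNA host gene, the spliced exons are either exported and degraded or kept as a long noncoding RNA, while the excised introns are trimmed to snoRNAs. Box C/D snoRNAs guide 2′-O-methylation and box H/ACA snoRNAs guide pseudouridylation, mainly of ribosomal RNA, whereas scaRNAs act on spliceosomal RNAs in Cajal bodies. Many spliced host RNAs carry short open reading frames and are removed by nonsense-mediated decay when they are translated, and many host genes, like those of ribosomal proteins, start transcription at a run of pyrimidines. Several members, GAS5 among them, are known to accumulate when growth or translation slows.

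GENCODE release 29 placed 143 snoRNA entries at 138 separate loci within 29 of the members, on the same strand. SNHG14 held 84 of the entries. GAS5 held none in that release, but RefSeq lists 11 within it, of which 10 are box C/D snoRNAs and 1 is a box H/ACA snoRNA. Those of 3 host genes with a single snoRNA, and 3 of the 5 within SNHG29 and SNHG32, are printed here on GRCh38, 5′ to 3′ as DNA. They were picked from hosts whose 24 h response differed between the lines, as given below, and so with those results known. Capitals mark box C (TGATGA) and box D (CTGA) in the SNORD genes and the box ACA, which lies 3 bases before the 3′ end, in the SNORA genes.
SNORA24 of SNHG8, chr4:118279190-118279320, plus strand: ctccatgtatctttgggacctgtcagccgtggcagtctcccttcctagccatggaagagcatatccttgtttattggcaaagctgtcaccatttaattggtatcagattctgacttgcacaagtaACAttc
SNORA13 of EPB41L4A-AS1, chr5:112161485-112161617, plus strand: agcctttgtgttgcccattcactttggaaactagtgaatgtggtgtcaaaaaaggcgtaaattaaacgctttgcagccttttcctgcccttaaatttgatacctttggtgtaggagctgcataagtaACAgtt
SNORA26 of DANCR, chr4:52713249-52713370, plus strand: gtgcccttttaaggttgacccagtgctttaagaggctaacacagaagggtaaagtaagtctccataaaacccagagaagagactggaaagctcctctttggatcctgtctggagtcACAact
SNORD49A of SNHG29, chr17:16440036-16440106, plus strand: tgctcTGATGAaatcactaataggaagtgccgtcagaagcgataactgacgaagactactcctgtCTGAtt
SNORD49B of SNHG29, chr17:16439505-16439576, plus strand: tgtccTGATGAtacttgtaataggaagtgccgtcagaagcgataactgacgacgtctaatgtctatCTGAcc
SNORD48 of SNHG32, chr6:31835263-31835326, plus strand: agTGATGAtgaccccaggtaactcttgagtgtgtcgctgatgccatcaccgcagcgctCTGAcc
SNORD49A and SNORD49B, neighbours in SNHG29, share an unbroken stretch of 35 bases. The counts below are reads on the host genes, not on these snoRNAs. Only 14 of the 143 entries have a row of their own in the count table, with at most 46 counts in a library, and none of these 14 overlaps an exon of its host. Of the 143, 50 overlap an annotated host exon, so that their reads could be counted on the host.

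The libraries held between 15081973 and 17571922 counts. BRCA1 stood at 118 ± 7.70 CPM (counts scaled to TMM-normalized library size, mean ± SD, n = 3) in untreated HCC1937-EV and at 138 ± 24.0 CPM in untreated HCC1937-OE-BRCA1, which was not called (0.24 ± 0.11, adjusted p = 0.0654, log2 fold change ± SE, edgeR's quasi-likelihood F-test, Benjamini-Hochberg adjusted over 18335 genes). Of 8 breast epithelium markers, 6 stayed under 6 CPM in the HCC1937-EV libraries and were higher in every HCC1937-OE-BRCA1 library. EPCAM lay between 0 and 0.0617 CPM in HCC1937-EV and between 252 and 352 CPM in HCC1937-OE-BRCA1. CDH1 lay between 0.313 and 1.20 CPM and between 329 and 488 CPM, KRT5 between 0 and 0.124 CPM and between 1062 and 1742 CPM, and KRT17 between 1.86 and 5.97 CPM and between 1229 and 2312 CPM. KRT14 and KRT19 reached at most 0.124 and 0.435 CPM in HCC1937-EV, against 21.0 to 48.9 CPM and 6.34 to 10.9 CPM. KRT8 and KRT18 were above 737 CPM in every library of both lines. Among 5 listed markers of other cell types, the fibroblast genes COL1A1 and PDGFRB reached 89.0 to 144 CPM and 6.34 to 11.3 CPM in HCC1937-EV, against 5.85 to 11.4 CPM and 0 to 0.189 CPM in HCC1937-OE-BRCA1. PTPRC was at 0 in every HCC1937-EV library and at 0.431 to 2.22 CPM in HCC1937-OE-BRCA1, PECAM1 at 0.740 to 2.65 and 9.92 to 20.7 CPM, and COL3A1 at 0 to 0.300 and 0 to 1.23 CPM. The libraries labelled HCC1937-EV thus lack defining epithelial markers, so the effect of BRCA1 and other differences between the lines cannot be told apart in any comparison below. Whether both sets of libraries come from the same parental line was not tested.

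Libraries also differed in how their deviation from the mean of their line followed GC content across genes, with Spearman coefficients from −0.584 to 0.640. The coefficient was negative in all 3 untreated HCC1937-EV libraries and positive in all 3 taken at 24 h. For HCC1937-OE-BRCA1, the coefficient was negative in all 3 libraries at 24 h and ran from −0.575 to 0.538 in the untreated ones. Replicate 3 at 12 h in HCC1937-EV, at 0.640, stood apart from the other replicates, at −0.584 and −0.208. The same coefficient for exonic length ran from 0.289 to 0.291 in untreated HCC1937-EV and from −0.357 to 0.0130 at 24 h. In untreated HCC1937-OE-BRCA1 it was 0.191, −0.358 and −0.0874 in replicates 1, 2 and 3, and it ran from 0.0223 to 0.262 at 24 h. Counts after an offset for GC content and gene length, and without single libraries, are therefore given beside the 24 h results. In bulk RNA, fewer cells of a kind and less RNA per cell cannot be told apart.

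Relative to untreated HCC1937-EV, the untreated HCC1937-OE-BRCA1 libraries had 14 of 26 members lower and 5 higher, where 33.3% of all tested genes were called lower and 39.4% higher. The share of members called in either direction was thus near that of all genes, and the balance of the members lay on the lower side. The median log2 difference of the members was −0.58, against 0.11 over all tested genes. SNHG16, host of the SNORD1 snoRNAs, lay at 138, 135 and 122 CPM in untreated HCC1937-EV and at 27.8, 21.99 and 28.0 CPM in untreated HCC1937-OE-BRCA1 (−2.34 ± 0.11, adjusted p = 3.19e-14). SNHG21, SNHG19 and EPB41L4A-AS1 were lower by a log2 difference of −3.00 ± 0.42, −2.53 ± 0.24 and −2.30 ± 0.19, followed by SNHG4 at −1.36 ± 0.12 and SNHG3 at −1.21 ± 0.10. In none of these 6 genes did the untreated libraries of the lines overlap. Over all members, untreated HCC1937-OE-BRCA1 lay wholly below untreated HCC1937-EV for 15 and wholly above for 4, against 33.7% and 38.7% of all genes. The smaller decreases were those of SNHG29, ZFAS1, SNHG20, GAS5, SNHG15, SNHG12, SNHG17 and SNHG26, between −1.001 and −0.57.

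SNHG14, the long transcript from the imprinted 15q11 region that hosts the SNORD115 and SNORD116 clusters, stood furthest apart. It had between 1 and 5 counts in each of the 9 HCC1937-EV libraries and between 1155 and 2045 counts in each of the 9 of HCC1937-OE-BRCA1. That is 0.268 ± 0.0350 CPM and 93.9 ± 21.7 CPM in the untreated cells (8.41 ± 0.24, adjusted p = 1.89e-17). SNRPN, which shares its strand and part of its exons with SNHG14, had no count in any HCC1937-EV library and 5.01 ± 0.501 CPM in untreated HCC1937-OE-BRCA1. UBE3A, on the opposite strand at the far end of SNHG14, was at 85.0 ± 3.68 and 90.3 ± 19.1 CPM and was not called (0.09 ± 0.15, adjusted p = 0.604). The other members higher in HCC1937-OE-BRCA1 were SNHG32 (2.38 ± 0.65), SNHG7 (0.69 ± 0.17), SNHG10 (0.44 ± 0.18) and DANCR (0.29 ± 0.12, adjusted p = 0.0348). For SNHG32 the untreated lines overlapped, at 1.108, 7.08 and 12.2 CPM in HCC1937-OE-BRCA1 and 1.180, 1.113 and 1.604 CPM in HCC1937-EV. Replicate 1 of HCC1937-OE-BRCA1 thus lay below every untreated HCC1937-EV library. The DANCR call was lost without any 1 of the 3 untreated HCC1937-EV libraries or without untreated replicate 2 of HCC1937-OE-BRCA1, with adjusted p up to 0.292. SNHG10 was lost without untreated replicate 3 of HCC1937-EV or replicate 2 of HCC1937-OE-BRCA1 (adjusted p up to 0.244), and SNHG26 without untreated replicate 1 of HCC1937-EV or replicate 2 of HCC1937-OE-BRCA1 (adjusted p up to 0.134). Without untreated replicate 2 of HCC1937-OE-BRCA1 the log2 difference of DANCR was 0.14 and that of SNHG10 0.24, and with the GC and length offset that of SNHG7 was 0.42 and still called. All of DANCR, SNHG10 and SNHG26 were also lost with the compared conditions alone, and DANCR and SNHG26 without the filter on low counts.

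Levels were compared between genes per length, as RPKM over the exonic length in GENCODE 29. In untreated HCC1937-EV the highest members were GAS5 at 79.99 ± 0.999 RPKM (SD, n = 3), SNHG19 at 69.8 ± 0.345, SNHG29 at 60.2 ± 3.43 and SNHG6 at 59.9 ± 4.53 RPKM. SNHG29 and SNHG6 lay within their spread of each other. In untreated HCC1937-OE-BRCA1 the order was SNHG6 at 62.5 ± 11.4 RPKM, GAS5 at 46.7 ± 5.48, SNHG29 at 30.1 ± 2.66 and SNHG1 at 28.2 ± 3.42 RPKM. SNHG29 and SNHG1 lay within the spread of each other and of SNHG8 at 27.1 ± 9.27 and DANCR at 26.4 ± 4.77 RPKM. SNHG19, second in HCC1937-EV, reached 12.1 ± 2.96 RPKM there. The 4 members that were not tested, SNHG22, SNHG25, SNHG28 and SNHG31, had at most 13 counts in any library.

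**Figure D1:**
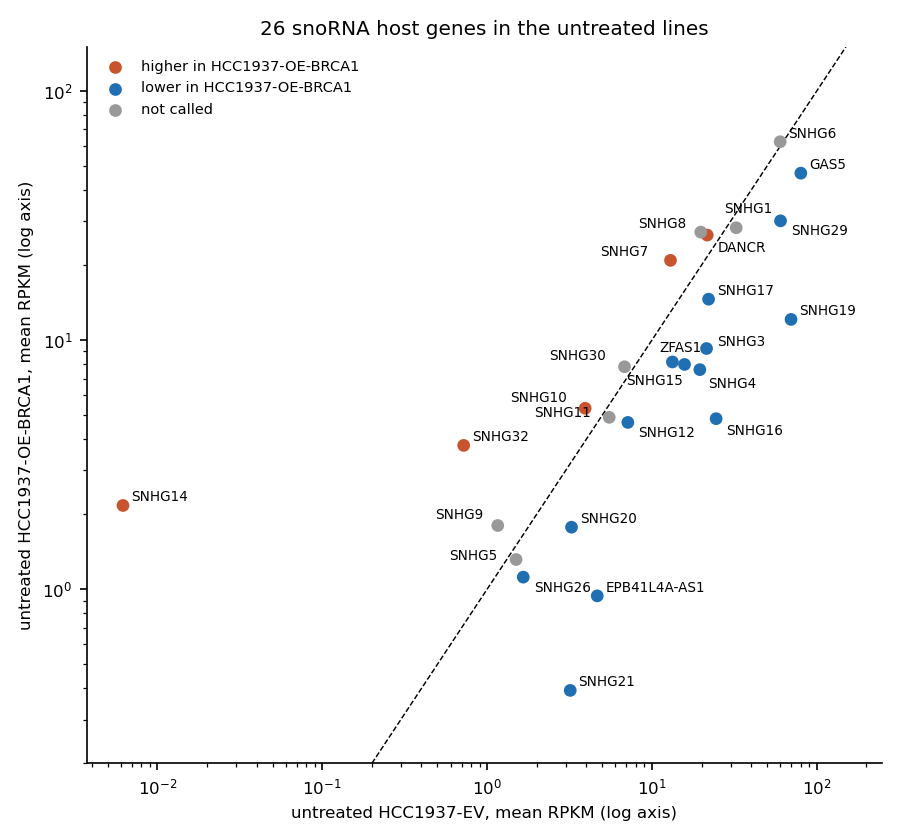
Mean level of the 26 tested members in untreated HCC1937-EV (x axis) and untreated HCC1937-OE-BRCA1 (y axis), in RPKM on log axes, 3 libraries each. The dashed line marks equal levels. Blue points (14 members) were called lower and orange points (5) higher in HCC1937-OE-BRCA1, and grey points were not called. SNHG14 lies far to the left because HCC1937-EV libraries held at most 5 counts of it.

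After 24 h of olaparib, 6 of the 7 members that passed the test in HCC1937-EV rose, and all 10 that passed it in HCC1937-OE-BRCA1 fell. In HCC1937-EV, 6 of 26 members rose (SNHG12, SNHG29, SNHG7, SNHG8, SNHG32 and EPB41L4A-AS1) and 1 fell (SNHG4), where 8.62% of all tested genes rose and 5.12% fell. The median log2 fold change of the members was 0.24 and that of all genes 0. The members' median was 0.14 without 24 h replicate 2 and 0.15 with an offset for GC content and gene length. In HCC1937-OE-BRCA1, none of 26 rose and 10 fell (DANCR, SNHG29, SNHG7, SNHG8, EPB41L4A-AS1, SNHG19, SNHG3, SNHG1, GAS5 and SNHG20), where 4.71% of all genes rose and 3.55% fell. At an unadjusted p under 0.05, 19 of 26 members differed in HCC1937-OE-BRCA1 and 13 in HCC1937-EV, against 4336 and 5620 of all 18335 genes. The median of the members was −0.39 in HCC1937-OE-BRCA1, against 0.02 over all genes. The 24 h libraries lay wholly above the untreated ones for 10 members and wholly below for 4 in HCC1937-EV, against 20.8% and 19% of all genes. In HCC1937-OE-BRCA1 they lay wholly below for 16 members and above for none, against 9.87% and 14% of all genes.

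**Figure D2:**
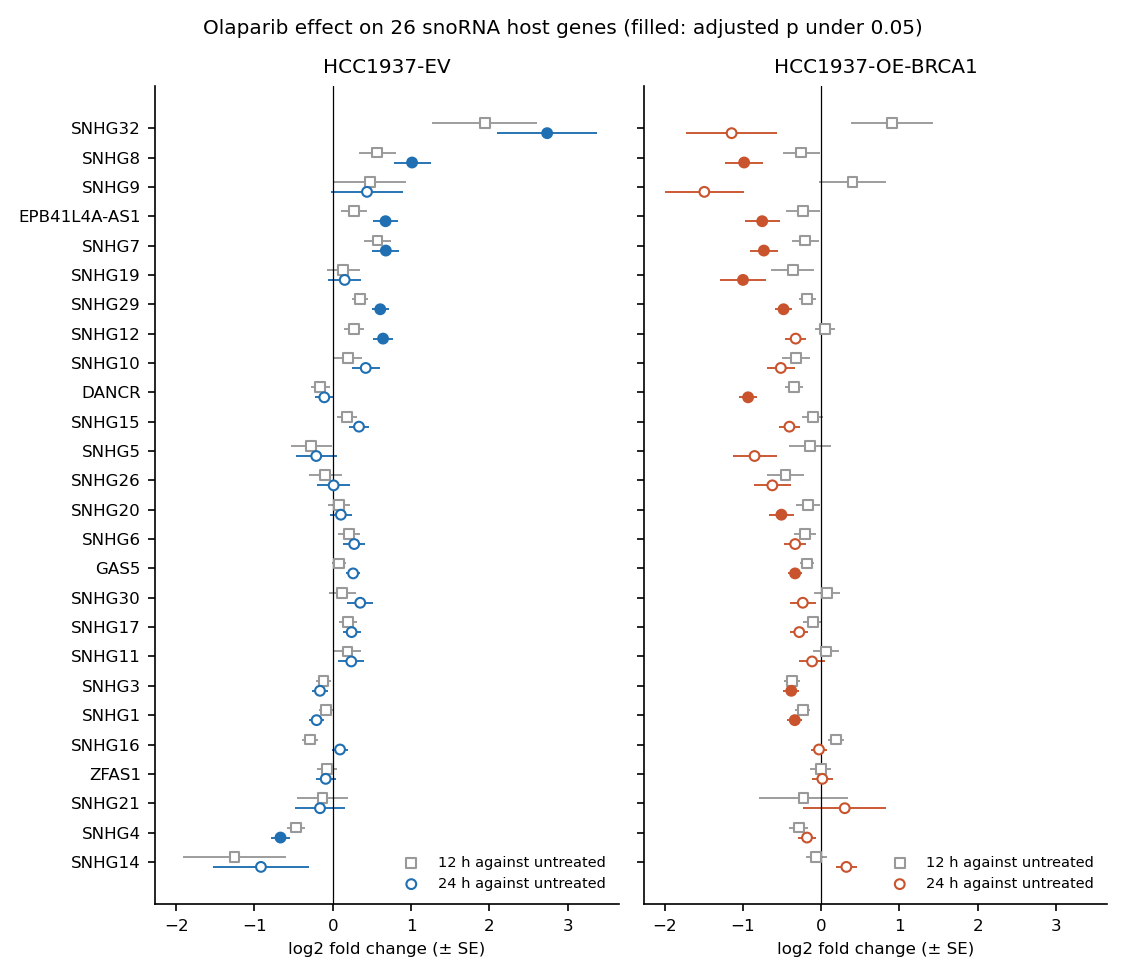
Log2 fold change ± SE of the 26 tested members after 12 h (grey squares) and 24 h (circles) of olaparib against untreated, in HCC1937-EV (left, blue) and HCC1937-OE-BRCA1 (right, orange), ordered by the difference between the lines at 24 h. Filled symbols passed an adjusted p of 0.05. At 24 h there are 7 filled circles on the left, of which 6 lie above 0, and 10 on the right, all below 0. No square is filled. The 12 h and 24 h values of a line share their untreated libraries.

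These counts moved with single libraries. In HCC1937-EV, 3 members rose without untreated replicate 1 or without 24 h replicate 1, and 4 to 7 without any other, while SNHG4 fell in all of these fits. In HCC1937-OE-BRCA1, 1 member fell without untreated replicate 2 or without 24 h replicate 3. The number was 3 without 24 h replicate 2, 4 without 24 h replicate 1, 7 without untreated replicate 3 and 14 without untreated replicate 1, where 1 member also rose. With the offset for GC content and gene length, 7 members rose and 2 fell in HCC1937-EV, and none rose and 18 fell in HCC1937-OE-BRCA1. With only the compared conditions in the fit, 10 rose and 2 fell in HCC1937-EV, and 5 fell in HCC1937-OE-BRCA1. Beside the fall of members, 4 of the 8 epithelium markers fell after 24 h in HCC1937-OE-BRCA1, and of the 5 other markers 1 was called higher in each line. Their part in the result was not tested.

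SNHG8, host of SNORA24, lay at 20.001, 15.1 and 19.6 CPM in untreated HCC1937-EV and at 44.3, 38.3 and 28.0 CPM after 24 h. In HCC1937-OE-BRCA1 its untreated libraries gave 16.8, 33.9 and 24.4 CPM and its 24 h libraries 14.6, 12.9 and 10.4 CPM. The groups did not overlap in either line. SNHG8 rose by 1.01 ± 0.24, adjusted p = 0.0108 in HCC1937-EV and its log2 change in HCC1937-OE-BRCA1 was −0.98 ± 0.24, adjusted p = 0.0151, both by edgeR's quasi-likelihood F-test, as are all adjusted p-values here. The rise was lost without 24 h replicate 1 (adjusted p = 0.0588), and the fall without untreated replicate 2 or 24 h replicates 2 or 3 (log2 −1.20 to −0.70 over all left-out libraries, adjusted p up to 0.123).

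EPB41L4A-AS1, host of SNORA13, was at 15.3, 15.2 and 16.2 CPM in untreated HCC1937-EV and 28.1, 26.3 and 20.2 CPM at 24 h. It was scarcer in HCC1937-OE-BRCA1, at 2.34, 3.76 and 3.34 CPM untreated and 2.15, 1.84 and 1.59 CPM after 24 h. All 24 h libraries were above the untreated ones in the first line and below them in the second. The log2 changes were 0.68 ± 0.16, adjusted p = 0.0117, and −0.75 ± 0.22, adjusted p = 0.0412. The rise did not hold without untreated replicate 1 or 24 h replicates 1 or 2 (adjusted p up to 0.0632). The fall held only without untreated replicate 1 and was lost without any of the other 5 (adjusted p up to 0.206), with the compared conditions alone and with the replicate block.

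DANCR, a long noncoding RNA named for antagonizing differentiation and host of SNORA26, fell in HCC1937-OE-BRCA1 and was not called in HCC1937-EV. In HCC1937-OE-BRCA1 its level was 50.5, 72.0 and 58.3 CPM untreated, 53.2, 43.9 and 45.3 CPM at 12 h and 31.8, 31.1 and 31.8 CPM at 24 h. The 24 h libraries lay below all others of the line and within 1 CPM of each other. The fall at 24 h (−0.93 ± 0.12, adjusted p = 3.63e-05) was called in every setting and without any single library, with a log2 change of −1.05 to −0.79 over the left-out libraries. DANCR was the only member called between 12 h and 24 h of olaparib in HCC1937-OE-BRCA1 (−0.59 ± 0.12, adjusted p = 0.0146), where 0.862% of all genes were lower and 0.791% higher. The 24 h libraries lay wholly below those of 12 h for 13 members and above for 2, against 17% and 18.4% of all genes. That call was lost without 12 h replicate 1 or any 24 h library (adjusted p up to 0.117). In HCC1937-EV, DANCR was at 48.6, 50.2 and 49.5 CPM untreated and 47.5, 43.5 and 46.7 CPM at 24 h (−0.11 ± 0.12, adjusted p = 0.581).

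SNHG7, host of the SNORA17 snoRNAs, was at 54.4, 62.1 and 52.5 CPM in untreated HCC1937-EV and 96.4, 91.8 and 82.1 CPM at 24 h. Untreated HCC1937-OE-BRCA1 gave 65.4, 107 and 100.3 CPM, and the same line at 24 h gave 63.2, 52.4 and 48.3 CPM. The groups did not overlap in either line, and untreated replicate 1 of HCC1937-OE-BRCA1, at 65.4 CPM, was close to the highest at 24 h. SNHG7 rose in HCC1937-EV (0.68 ± 0.17, adjusted p = 0.0166) and fell in HCC1937-OE-BRCA1 (−0.73 ± 0.18, adjusted p = 0.0125). With the GC and length offset the rise was smaller, at 0.27 on the log2 scale, and still called. Each call was lost without any of 4 libraries: in HCC1937-EV untreated replicates 1 and 3 and 24 h replicates 1 and 2 (adjusted p up to 0.0792), and in HCC1937-OE-BRCA1 replicates 2 and 3 of both conditions (adjusted p up to 0.0832).

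SNHG12, host of SNORA16A, SNORA44, SNORA61 and SNORD99, rose in HCC1937-EV from 28.2, 30.9 and 32.3 CPM to 50.6, 48.2 and 44.0 CPM, with no overlap between the groups (0.64 ± 0.13, adjusted p = 0.00454). The call held in each fit that left out 1 library. In HCC1937-OE-BRCA1 SNHG12 lay at 18.2, 22.9 and 18.7 CPM untreated and 16.7, 17.01 and 14.0 CPM at 24 h, also with no overlap, but was not called (−0.33 ± 0.13, adjusted p = 0.130). SNHG4, host of the SNORA74 snoRNAs, moved the other way: it fell in HCC1937-EV from 94.5, 80.7 and 86.5 CPM to 57.1, 53.2 and 54.4 CPM, a separation that was called in each fit that left out 1 library (−0.67 ± 0.12, adjusted p = 0.00264). In HCC1937-OE-BRCA1 SNHG4 was at 38.8, 35.1 and 28.1 CPM untreated and 30.2, 29.8 and 30.0 CPM at 24 h, where the groups overlapped (−0.18 ± 0.12, adjusted p = 0.394). SNHG3, host of SNORA73A and SNORA73B, fell in HCC1937-OE-BRCA1 from 39.7, 38.8 and 35.0 CPM to 27.7, 31.3 and 28.0 CPM (−0.38 ± 0.10, adjusted p = 0.0219), again without overlap. That call was lost without untreated replicate 2 or 24 h replicates 1 or 3 (adjusted p up to 0.104) and with the compared conditions alone. In HCC1937-EV SNHG3 was at 91.8, 82.4 and 88.6 CPM and 84.5, 78.8 and 71.5 CPM (−0.16 ± 0.10, adjusted p = 0.264).

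**Figure D3:**
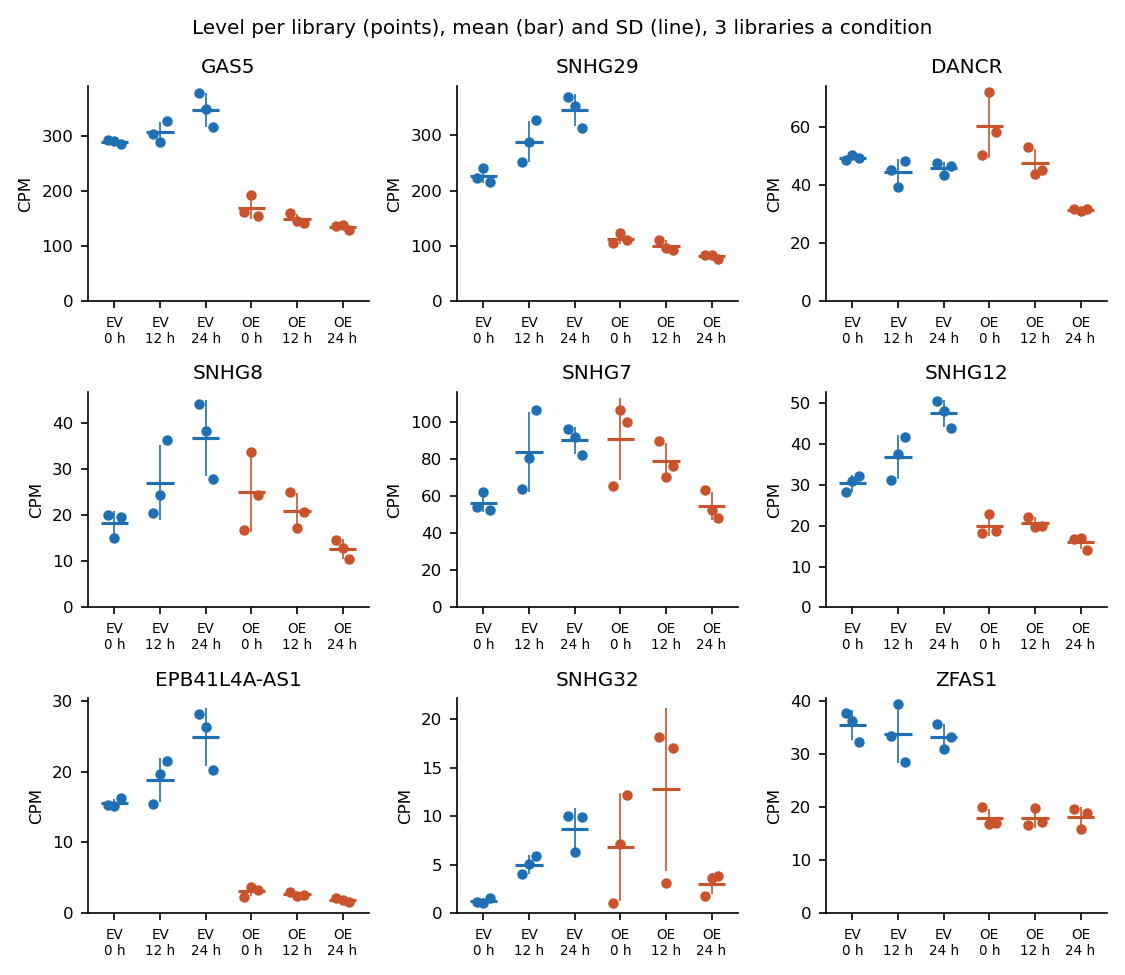
Level in CPM of 9 members in each library (points), with the mean (bar) and SD (vertical line) of 3 libraries, for HCC1937-EV (blue) and HCC1937-OE-BRCA1 (orange) at 0, 12 and 24 h of olaparib. In SNHG8, SNHG7 and EPB41L4A-AS1 the 24 h points lie above the 0 h points in HCC1937-EV and below them in HCC1937-OE-BRCA1. DANCR at 24 h in HCC1937-OE-BRCA1 forms a tight group between 31.1 and 31.8 CPM, and the 0 h and 24 h points of ZFAS1 overlap within each line.

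Among hosts of box C/D snoRNAs, SNHG29 had the smallest adjusted p of the members that rose. It lay at 222, 241 and 216 CPM in untreated HCC1937-EV, 252, 287 and 327 CPM at 12 h and 369.6, 352 and 313 CPM at 24 h. For HCC1937-OE-BRCA1, it lay at 104, 124 and 111 CPM, 111, 95.6 and 92.9 CPM and 83.3, 84.2 and 75.6 CPM. In both lines the 24 h libraries were separated from the untreated ones, upward in the former and downward in the latter. SNHG29 rose in HCC1937-EV (0.61 ± 0.11, adjusted p = 0.00251), a call that held in each fit that left out 1 library. It fell in HCC1937-OE-BRCA1 (−0.48 ± 0.11, adjusted p = 0.00775), a call lost without untreated replicate 2 or 24 h replicate 3 (adjusted p up to 0.0590).

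GAS5, the growth-arrest transcript, was at 294, 291 and 286 CPM in untreated HCC1937-EV and 378, 349.7 and 316 CPM at 24 h. These groups did not overlap, but the increase did not pass the threshold (0.26 ± 0.09, adjusted p = 0.0660). In HCC1937-OE-BRCA1 GAS5 was at 162, 192 and 155 CPM untreated and 137, 138 and 129 CPM at 24 h, again without overlap, and fell (−0.33 ± 0.09, adjusted p = 0.0331). The fall was lost without untreated replicate 2 or any of the 24 h libraries (log2 −0.40 to −0.23, adjusted p up to 0.203) and with the compared conditions alone. SNHG1, host of 7 box C/D snoRNA genes in GENCODE 29, fell by a similar amount in HCC1937-OE-BRCA1, from 106, 119 and 93.3 CPM to 78.1, 87.6 and 86.2 CPM (−0.34 ± 0.09, adjusted p = 0.0305), with the calls lost under the same settings (adjusted p up to 0.184). In HCC1937-EV SNHG1 was at 121, 124 and 120.3 CPM untreated and 111, 107 and 98.8 CPM at 24 h (−0.21 ± 0.09, adjusted p = 0.139).

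SNHG32, host of SNORD48 and SNORD52, showed the largest called rise in HCC1937-EV and varied widely between libraries in HCC1937-OE-BRCA1. In HCC1937-EV it went from 1.18, 1.11 and 1.60 CPM untreated through 4.03, 5.13 and 5.91 CPM at 12 h to 9.98, 6.31 and 9.88 CPM at 24 h, and no library of 1 time overlapped with another time. In HCC1937-OE-BRCA1 it lay at 1.11, 7.08 and 12.2 CPM untreated, 18.2, 3.08 and 17.03 CPM at 12 h and 1.78, 3.62 and 3.80 CPM at 24 h. There the 24 h libraries lay within the range of the untreated ones. The rise in HCC1937-EV was 2.74 ± 0.64, adjusted p = 0.0112, and was lost without untreated replicate 1 (adjusted p = 0.0600). The log2 change in HCC1937-OE-BRCA1 was −1.14 ± 0.58, adjusted p = 0.241, and was not called. SNHG19, host of SNORD60, was at 3.02, 4.99 and 4.41 CPM in untreated HCC1937-OE-BRCA1 and 1.97, 2.52 and 1.72 CPM at 24 h and fell there (−0.999 ± 0.29, adjusted p = 0.0379). That call held only without untreated replicate 1, was lost without any of the other 5 (adjusted p up to 0.176) and was lost with the replicate block. In HCC1937-EV SNHG19 was at 23.9, 24.0 and 23.7 CPM and 30.6, 29.1 and 19.9 CPM (0.15 ± 0.21, adjusted p = 0.676).

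ZFAS1, host of the SNORD12 snoRNAs, was not called after olaparib in either line. It lay at 37.6, 36.2 and 32.2 CPM untreated and 35.7, 31.0 and 33.1 CPM at 24 h in HCC1937-EV (−0.09 ± 0.13, adjusted p = 0.691). In HCC1937-OE-BRCA1 it lay at 19.9, 16.8 and 17.003 CPM and 19.5, 15.8 and 18.9 CPM (0.01 ± 0.13, adjusted p = 0.981). The groups overlapped in both lines. SNHG20, host of SCARNA16, was the tenth member to fall in HCC1937-OE-BRCA1 (−0.51 ± 0.16, adjusted p = 0.0491), from 10.8 ± 0.248 to 7.59 ± 1.13 CPM. It kept its call only without untreated replicate 1 (adjusted p up to 0.205 without others) and lost it with the compared conditions alone.

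The responses at 24 h themselves differed between the lines. The test of the difference, HCC1937-OE-BRCA1 minus HCC1937-EV, was called lower for 14 of 26 members and higher for 1, where 11.2% of all genes were lower and 8.16% higher. The median difference was −0.62 over the members and 0.05 over all genes. The 14 were, by size, SNHG32 (−3.88 ± 0.87), SNHG8 (−2.00 ± 0.34), EPB41L4A-AS1 (−1.43 ± 0.27), SNHG7 (−1.41 ± 0.25), SNHG19 (−1.15 ± 0.36), SNHG29 (−1.09 ± 0.15), SNHG12 (−0.97 ± 0.18), SNHG10 (−0.94 ± 0.25), DANCR (−0.83 ± 0.17), SNHG15 (−0.74 ± 0.19), SNHG20 (−0.61 ± 0.21), SNHG6 (−0.61 ± 0.20), GAS5 (−0.59 ± 0.13) and SNHG17 (−0.52 ± 0.16). SNHG4 was the 1 called higher (0.49 ± 0.17). The smallest adjusted p was that of SNHG29, at 1.86e-04. In SNHG32, SNHG8, EPB41L4A-AS1, SNHG7, SNHG29, SNHG12, DANCR, SNHG15 and GAS5 the call held without any single library. The number called lower was 9 without untreated replicate 2 of HCC1937-OE-BRCA1 and 10 to 15 without any other, and it was 16 with the offset for GC content and gene length. The difference of SNHG10 was lost without untreated replicate 2 of HCC1937-OE-BRCA1 (adjusted p = 0.0552), that of SNHG19 without any of 8 libraries and with the GC and length offset, and that of SNHG20 without any of 9 (adjusted p up to 0.0975 and 0.149 without a library). The difference of SNHG4 was lost without 10 of the 12 libraries (adjusted p up to 0.130), without the filter on low counts and with the GC and length offset (log2 0.30). The difference of SNHG7 was −0.80 with that offset, and still called.

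Of these, 4 members were called in the difference but in neither line alone: SNHG15, host of SNORA9, SNHG17, host of the SNORA71 snoRNAs, SNHG6, host of SNORD87, and SNHG10, host of SCARNA13. SNHG15 was at 48.5 ± 4.27 CPM untreated and 61.3 ± 2.79 CPM at 24 h in HCC1937-EV, and at 29.8 ± 4.32 and 22.5 ± 1.33 CPM in the other line. SNHG17 was at 92.3 ± 8.39 and 109 ± 4.84 CPM in the former and 61.1 ± 4.52 and 50.3 ± 6.03 CPM in the latter. The adjusted p of the difference was 0.00943 for SNHG15, 0.0140 for SNHG10, 0.0315 for SNHG17 and 0.0416 for SNHG6. The last pair were lost without any of 7 and 9 of the 12 libraries, respectively (adjusted p up to 0.110 and 0.141). The 11 tested members not called in the difference included SNHG3 and SNHG1, whose log2 changes at 24 h were negative in both lines, and ZFAS1 (0.10 ± 0.19, adjusted p = 0.773). They also included the scarce SNHG9, with a difference of −1.93 ± 0.69 on a mean of 0.843 CPM.

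At 12 h no member was called in either line by edgeR's quasi-likelihood test. In HCC1937-EV, 0.0273% of all genes were higher and 0.0164% lower at 12 h, so that few calls of any kind were made. There, 7 of 26 members had an unadjusted p under 0.05, as did 2963 of all 18335 genes. DESeq2's Wald test called 0 members higher and 1 lower. The 12 h libraries lay wholly above the untreated ones for 4 members and wholly below for 5, against 10.1% and 9.65% of all genes. In HCC1937-OE-BRCA1, 1.7% of all genes were higher and 0.605% lower. There, 4 of 26 members had an unadjusted p under 0.05, as did 2137 of all 18335 genes. The Wald test called 0 members higher and 1 lower, and 4 members lay wholly below and none above, against 5.87% and 9.21%. The median log2 change of the members was 0.13 in HCC1937-EV, or 0.020 without 12 h replicate 3, and −0.18 in HCC1937-OE-BRCA1, or −0.081 without untreated replicate 2, and over all genes it was 0 and 0.0037. The largest value at 12 h was that of SNHG32 in HCC1937-EV (1.94 ± 0.67, adjusted p = 0.179), followed by SNHG8 (0.57 ± 0.24, adjusted p = 0.243) and SNHG7 (0.57 ± 0.18, adjusted p = 0.156) in the same line. The smallest adjusted p in HCC1937-OE-BRCA1 was that of SNHG3 (−0.37 ± 0.10, adjusted p = 0.0571). For the difference between the lines at 12 h, no member was called, where 0.376% of all genes were higher and 0.142% lower. An unadjusted p under 0.05 was found for 4 of 26 members and for 2690 of all 18335 genes. DESeq2's Wald test called 1 member in each direction. Between 12 h and 24 h in HCC1937-EV, no member was called, where 0.136% of all genes were higher and 0.0436% lower. The Wald test called 1 member higher. An unadjusted p under 0.05 was found for 4 of 26 members and for 1686 of all 18335 genes. There the 24 h libraries lay wholly above those of 12 h for 3 members and below for none, against 5.69% and 4.83%.

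Many host genes share bases with neighbours, and whether reads were counted by strand is not given in the sources used here. Of the 30 members, 16 overlap an exon of a gene on the opposite strand and 8 an exon of a gene on their own strand. Genes of snoRNAs, scaRNAs and microRNAs were left out of these overlaps. Reads on bases shared with the opposite strand cannot be told apart without strand, and those shared on the same strand not even with it. EPB41L4A-AS1, at chr5:112160526-112164276 on the plus strand, shares 1659 of its 3344 exonic bases with EPB41L4A on the other strand. EPB41L4A was at 10.2 ± 1.31 and 9.34 ± 1.77 CPM in HCC1937-EV at 0 and 24 h (−0.13 ± 0.18, adjusted p = 0.681). In HCC1937-OE-BRCA1 it rose from 0.808 ± 0.196 to 1.88 ± 0.494 CPM (1.21 ± 0.28, adjusted p = 0.00968), where EPB41L4A-AS1 fell. ZNFX1, which shares exonic bases with ZFAS1 from the other strand, rose in HCC1937-OE-BRCA1 from 177 ± 15.3 to 346 ± 27.2 CPM (0.97 ± 0.09, adjusted p = 9.45e-07), while ZFAS1 lay at 17.9 ± 1.78 and 18.1 ± 1.97 CPM. GLRX5, opposite SNHG10, moved in the same directions as SNHG10, with 0.68 ± 0.14, adjusted p = 0.00637 in HCC1937-EV and −0.59 ± 0.14, adjusted p = 0.0121 in HCC1937-OE-BRCA1. For SNHG10 these values were 0.42 ± 0.18, adjusted p = 0.112, and −0.52 ± 0.18, adjusted p = 0.0796. SIL1, opposite SNHG4, rose in HCC1937-EV (0.82 ± 0.15, adjusted p = 0.00325), where SNHG4 fell. The MATR3 row that shares 626 exonic bases with SNHG4 on its own strand held at most 0.803 CPM in untreated HCC1937-EV and was too low to be tested. Over 15 tested pairs of a member and a named gene that shares its exonic bases, both were called at 24 h in 1 pair in each line, in opposite directions. In the difference between the lines at 24 h both were called in 4 pairs, 2 in the same direction and 2 in opposite ones. The 2 in the same direction were SNHG12 with TRNAU1AP and SNHG10 with GLRX5. Between the untreated lines both were called in 11 pairs, 6 in the same direction and 5 in opposite ones. Among the 6 were EPB41L4A (−3.65 ± 0.24) with EPB41L4A-AS1, SEC14L1 (−0.91 ± 0.11) with SNHG20 and DIPK1B (4.29 ± 0.28) with SNHG7. SNHG8, SNHG15, SNHG17, SNHG19 and SNHG1 share no exonic base with another gene of that annotation.

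The other genes that make or use snoRNAs were read beside the members. Ribosomal protein genes, many of which also host snoRNAs, showed the same split: of 86 cytosolic ones, 41 (47.7%) rose and none fell at 24 h in HCC1937-EV, with a median of 0.37. Over all genes, 8.62% rose and 5.12% fell there. In HCC1937-OE-BRCA1, 12 (14.0%) fell and none rose, with a median of −0.37, against 3.55% and 4.71% of all genes. The difference between the lines was called lower for 57 (66.3%) and higher for none, with a median of −0.75, against 11.2% and 8.16% of all genes. The 29 of them that host a snoRNA gave 13 (44.8%) risen and 7 (24.1%) fallen in the respective lines, with medians of 0.35 and −0.38. Of 196 other protein-coding snoRNA hosts tested, 10 (5.10%) rose and 24 (12.2%) fell in HCC1937-EV (median −0.11). Their balance lay on the falling side there, unlike that of the members. In HCC1937-OE-BRCA1, 6 (3.06%) of these hosts rose and 8 (4.08%) fell (median 0.01), near the shares of all genes. No offset for GC content or gene length was applied to these lists.

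Core snoRNP proteins and their assembly factors, 17 in number, gave 2 that rose and 1 that fell at 24 h in HCC1937-EV, near the 8.62% and 5.12% of all genes. In the other line 3 fell and none rose, against 3.55% and 4.71%. NHP2 (0.68 ± 0.15, adjusted p = 0.00799) and NOP10 (0.50 ± 0.17, adjusted p = 0.0493), both H/ACA proteins, rose at 24 h in HCC1937-EV, and the assembly factor ZNHIT3 fell (−1.17 ± 0.37, adjusted p = 0.0421). In HCC1937-OE-BRCA1 none rose, and GAR1 (−0.50 ± 0.12, adjusted p = 0.0122), the box C/D methyltransferase FBL (−0.46 ± 0.13, adjusted p = 0.0359) and RUVBL1 (−0.41 ± 0.11, adjusted p = 0.0247) fell. Of 16 nonsense-mediated decay factors, none rose and 3 fell in HCC1937-EV, where 5.12% of all genes fell. Among them were SMG1 (−0.62 ± 0.18, adjusted p = 0.0297), the kinase that phosphorylates UPF1, and CASC3 (−0.30 ± 0.09, adjusted p = 0.0271). None of the 16 was called in HCC1937-OE-BRCA1 by edgeR's quasi-likelihood test. There, 4 of the 16 had an unadjusted p under 0.05, as did 4336 of all 18335 genes.

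By library, the members together took 0.140% to 0.149% of all counts in untreated HCC1937-EV and 0.160% to 0.176% at 24 h. In HCC1937-OE-BRCA1 they took 0.0990% to 0.109% untreated and 0.0821% to 0.0860% at 24 h. The groups did not overlap within either line. The median deviation of the members from the mean of their untreated libraries ran from 0.09 to 0.29 in the 24 h libraries of HCC1937-EV and from −0.43 to −0.29 in those of HCC1937-OE-BRCA1, on the log2 CPM scale with 0.5 added. In the untreated HCC1937-OE-BRCA1 libraries this median ran from −0.11 to 0.17, and the medians of the ribosomal protein genes ran from −0.23 to 0.29 across the same 3 libraries. Replicate 2 was the highest of these libraries for both lists. Without it, as without 24 h replicate 3, DANCR alone fell in that line.

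**Figure D4:**
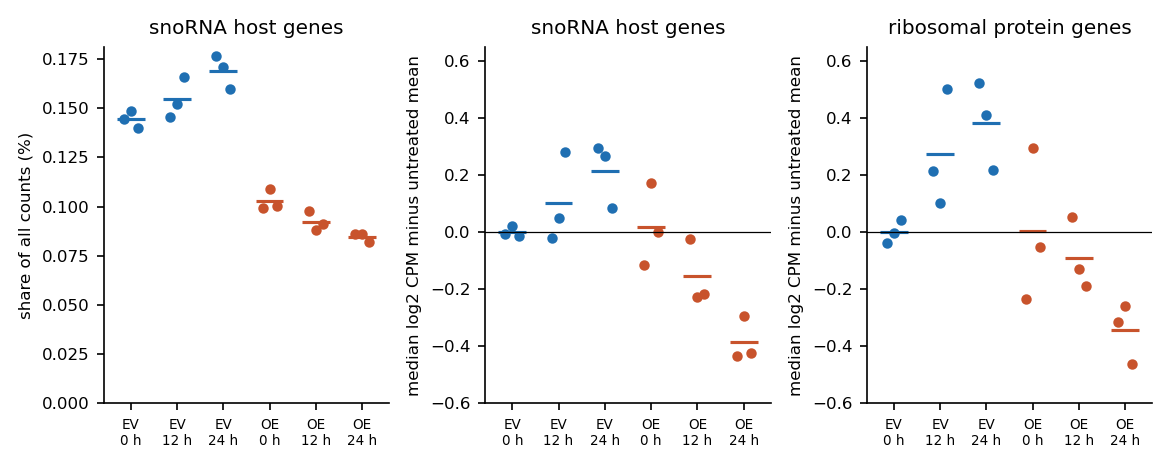
Share of all counts taken by the 30 members (left, percent), and median over genes of log2 CPM minus the mean of the untreated libraries of the same line, for the members (middle) and for ribosomal protein genes (right). Each point is 1 library and each bar the mean of 3. The 24 h points of the left panel lie above the 0 h points in HCC1937-EV, at 0.160% to 0.176%, and below them in HCC1937-OE-BRCA1, at 0.0821% to 0.0860%.

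The starts of the members were searched for the pyrimidine run that marks many genes of the translation machinery. The search asked for C at the annotated RefSeq start followed by at least 4 further C or T bases on the transcribed strand. Of 26 members with a RefSeq start (GRCh38.p14), 6 had such a start (23.1%). The rule was met by 45 of 68 ribosomal protein genes (66.2%) and by 4.07% of 35116 starts in all. It read only the annotated start, so a run that begins at a nearby base would be missed. For members outside these 6, GAS5 among them, the search cannot decide whether transcription starts at such a run. These 6 are printed from 10 bases before the start to 20 bases from it, with the run in capitals, because they are the starts that met this rule.
SNHG12, chr1:28581854-28581883, minus strand: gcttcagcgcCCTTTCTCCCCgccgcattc
SNHG4, chr5:139274091-139274120, plus strand: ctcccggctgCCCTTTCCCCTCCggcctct
SNHG32, chr6:31834906-31834935, plus strand: cattttagttCTTTTTgcgaagtgggctcg
SNHG19, chr16:2155339-2155368, minus strand: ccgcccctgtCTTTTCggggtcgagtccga
SNHG5, chr6:85678714-85678743, minus strand: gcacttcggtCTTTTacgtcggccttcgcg
ZFAS1, chr20:49278632-49278661, plus strand: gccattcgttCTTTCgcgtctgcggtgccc
The 6 did not respond alike. At 24 h in HCC1937-EV, SNHG12 and SNHG32 rose, SNHG4 fell, and SNHG19, SNHG5 and ZFAS1 were not called, whereas in HCC1937-OE-BRCA1 SNHG19 alone among the 6 fell. By this rule, 3 of the 14 members whose 24 h response was lower in HCC1937-OE-BRCA1 had such a start. So did 3 of the 12 other members tested. Any run that the rule missed is absent from both counts, and a member without a RefSeq start counted as having no run. The 14 had a median GC content of 50.3%, from 42.0% to 65.9%, and the other 12 of 45.0%, from 39.2% to 66.5%. Exonic overlap with another gene, leaving out genes of snoRNAs, scaRNAs and microRNAs, was found in 10 of the 14 and in 7 of the 12.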

How the data were processed

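RNA-seq of 18 libraries, 3 for each of 6 conditions, was used. Groups were taken from the sample titles. The authors extracted RNA with TRIzol, used the NEBNext Ultra II kit for library construction, and deposited whole-number read counts per gene without normalization, in a joint table and in 18 single-library tables that hold the same values. The submitters' processing notes name HISAT2, featureCounts, DESeq2 and GRCh38. The annotation release and strand setting are not given in the sources used here. Nothing says whether replicates were separate cultures, so p-values measure only the spread between these libraries. Symbols were found for 34966 of 35044 identifiers. Positions, exonic lengths and GC content (of the longest transcript) came from GENCODE 29 on GRCh38, which held 33888 (96.7%), and starts from RefSeq on GRCh38.p14.

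edgeR 4.0.16 in R 4.3.3 was run with TMM, filterByExpr and the quasi-likelihood test, with all 18 libraries in 1 model that gives each condition a mean. A call needed an adjusted p under 0.05 (Benjamini-Hochberg, 18335 genes). The biological coefficient of variation was 12.9%, and the procedure was tested on simulated data. The simulated counts had 1 spread for all genes and no GC or length trend of single libraries, so that test does not cover these features. Fold changes are log2, and levels are CPM or RPKM computed from the deposited counts. Alternatives were DESeq2 1.42.0 (size factors, Wald test), no filter, the compared conditions alone, a replicate block, an offset for GC content and gene length (available for 98.6% of tested genes) with and without the block, and each library left out in turn. Members and lists were chosen with earlier results of these data known. GAS5, DANCR, ZFAS1 and EPB41L4A-AS1 are given in full, with up to 12 called members of at least 5 CPM on average, by smallest adjusted p. Other members are summarised. The value of 1 listed gene is not reported here.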

Additional observations from a re-analysis of the deposited data

Results flagged for a closer look

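The 24 h olaparib response differed between the lines, by the test of the difference itself (HCC1937-OE-BRCA1 minus HCC1937-EV, edgeR's quasi-likelihood F-test, Benjamini-Hochberg adjusted), in 15 of 26 members, 14 lower and 1 higher, where 11.2% of all genes were lower and 8.16% higher. On the log2 scale the difference was −3.88 for SNHG32, −2.00 for SNHG8, −1.43 for EPB41L4A-AS1, −1.41 for SNHG7, −1.15 for SNHG19, −1.09 for SNHG29 and −0.97 for SNHG12. It was −0.94 for SNHG10, −0.83 for DANCR, −0.74 for SNHG15, −0.61 for SNHG20, −0.61 for SNHG6, −0.59 for GAS5, −0.52 for SNHG17 and 0.49 for SNHG4. Adjusted p-values ran from 1.86e-04 for SNHG29 to 0.0484 for SNHG20. In SNHG8, EPB41L4A-AS1, SNHG7 and SNHG29 each line's own change was called too, upward in HCC1937-EV and downward in HCC1937-OE-BRCA1. The value of SNHG32 rests on untreated HCC1937-OE-BRCA1 libraries that held 18, 115 and 194 counts. With 3 libraries a condition, no single library was tested as lying apart.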

How the results depend on the processing

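All 52 calls of members kept their direction in all 766 recomputed values, which use nearly the same libraries as the calls. Fewer stayed under the threshold. Without untreated replicate 2 of HCC1937-OE-BRCA1, 18 of 44 calls were lost, and without its 24 h replicate 3, 15 of 26. Without its untreated replicate 1, all 44 were kept. DESeq2's size factors changed no count of members called. DESeq2's Wald test called 1 member lower at 12 h in each line, 1 higher between 12 h and 24 h in HCC1937-EV and 2 lower between them in the other line. In the 12 h difference it called 1 higher and 1 lower. Without the filter on low counts, HCC1937-EV gave 3 higher and 1 lower at 12 h, HCC1937-OE-BRCA1 gave 1 higher at 12 h, 16 lower at 24 h and 5 lower between 12 h and 24 h, with 3 lower in the 12 h difference and 0 higher in the 24 h difference. With the compared conditions alone, HCC1937-EV gave 10 higher and 2 lower at 24 h, HCC1937-OE-BRCA1 gave 5 lower at 24 h and 1 higher and 8 lower between 12 h and 24 h, and the untreated lines gave 3 higher. With the GC and length offset, 1 was lower at 12 h, 2 lower at 24 h and 1 higher between 12 h and 24 h in HCC1937-EV. In HCC1937-OE-BRCA1, 3 were lower at 12 h, 18 lower at 24 h, and 1 higher and 3 lower between 12 h and 24 h. In the 12 h difference 2 were lower, and in the 24 h difference 0 were higher. The offset with the replicate block gave the same counts as the offset alone, except 2 lower between 12 h and 24 h in HCC1937-OE-BRCA1 and, in the 24 h difference, 1 higher. The cause of these shifts was not tested.

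Replicate numbers did not pair the samples: deviations of same-numbered libraries correlated between −0.23 and 0.30, and 5 of 45 pairs exceeded 0.1. With the replicate block, 8 members were lower at 24 h in HCC1937-OE-BRCA1 in place of 10, and no other count of members changed.

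Without single libraries, members higher and lower numbered 0 to 2 and 0 to 1 at 12 h and 3 to 7 and 1 at 24 h in HCC1937-EV, and 0 and 0 between these times. They numbered 0 and 0 to 1 at 12 h, 0 to 1 and 1 to 14 at 24 h, and 0 and 0 to 2 between these times in HCC1937-OE-BRCA1. They numbered 3 to 6 and 13 to 14 between the untreated lines, 0 to 1 and 0 to 2 in the 12 h difference, and 0 to 1 and 9 to 15 in the 24 h difference. The libraries behind the shifts at 24 h are named with the results; at 12 h they were 12 h replicate 1 of HCC1937-EV and untreated replicates 1 and 3 of HCC1937-OE-BRCA1. The 4 members with at most 13 counts a library were removed by the count filter, so the main fit did not test whether they changed. The counts of members called without that filter include them.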
